A study of Mus musculus with 9 samples.

Results

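Transcript levels were described in the uteri of control mice on day 3.5 of gestation (GD 3.5), in the 3 arrays labelled control 1, control 2 and control 3, out of 9 arrays in all. The other 6 arrays hold uteri that lack Mig-6 (Mig-6 d/d, 3 arrays) or both Mig-6 and Erbb2 (3 arrays) and were not used, so nothing below compares genotypes. The members are therefore a labelled group and not a selection by value, and 18193 genes were ranked in them by the mean of the 3 linear intensities at the brightest probe set of each gene. The study asked how loss of MIG-6, an inhibitor of epidermal growth factor receptor family signalling encoded by Errfi1, makes the endometrium resistant to progesterone, and these arrays supplied its reference state.

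The controls were female mice with floxed alleles, either of Mig-6 alone (Mig-6 f/f) or of both genes (Mig-6 f/f Erbb2 f/f), on a mixed C57BL/6 and 129P2/OlaHsd background, mated with C57BL/6 males. Floxed genes are flanked by recombination sites and intact, whereas the knockouts of the series carry in addition a Cre recombinase expressed from the progesterone receptor gene. Which control array carries which control genotype is not given, so genotype and array cannot be told apart. The label text puts the mice at 2 weeks of age, the methods at 8 to 12 weeks. RNA of several mice per genotype was pooled, and nothing says whether the 3 arrays are separate pools. The spread between them may therefore be technical, and no test was run on it. Whole uteri were extracted, and whether embryos were flushed out is not given.

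On GD 3.5 the mouse uterus stands shortly before implantation. Estrogen (E2) has driven epithelial proliferation, progesterone (P4) from the new corpora lutea then acts through its receptor PGR in stroma and epithelium, and a brief rise of E2 on this background makes the uterus receptive to the blastocyst. The organ consists of an outer smooth muscle wall, the myometrium, around a stroma rich in fibroblasts, which holds vessels, immune cells, glands and the luminal epithelium that the embryo attaches to.

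Intensities are fluorescence values without a physical unit, from 2.11 to 11549 on the 3 arrays, and their medians over probe sets were 7.97, 8.24 and 8.19. Pairs of arrays correlated closely across genes, with a Pearson's r of log2 intensity of 0.99 in each pair, a description over genes that share probes and normalization. Control 3 stood apart in a set of genes. Among the 7032 genes with a mean of at least 50, 40 genes (0.569%) were more than 2-fold higher in control 3 than in both other arrays and 94 (1.34%) more than 2-fold lower. That mean takes in control 3, so some of the 40 passed the limit only through it, such as Clca1 with 24.3, 7.37 and 133. The same counts were 7 (0.0995%) and 1 (0.0142%) for control 1, and 2 (0.0284%) and 16 (0.228%) for control 2. Some values that rest on control 3 are therefore also given without it, namely ranks or means of leading genes and medians of the lists it moves.

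A floor for the ranking came from transcripts that a mouse uterus should not hold. Of the genes restricted to other tissues, 44 were measured, and their mean intensities had a median of 4.71 and reached 22.1 for Cela1, a pancreatic elastase. Their 95th percentile was 14.3. The floor named from here on is the 22.1 of Cela1, so a gene under it can still exceed most of these 44. The 7 measured Y-linked genes, absent from female tissue, had a median of 3.73 and reached 6.01 for Sry, the testis-determining gene. Intensities above every one of these were seen for 9439 genes, or 51.9% of those ranked. A mean of at least 100 was reached by 4497 genes and a mean of at least 1000 by 329.

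Genes of protein synthesis, matrix and contraction led the ranking. Tpt1, a growth-related protein and the brightest gene, measured 9987, 9794 and 7762 in controls 1, 2 and 3 (mean 9181 ± 1232, SD, n = 3). Col3a1, which encodes the main collagen of soft distensible tissue, followed with 8416, 8067 and 6913 (7799 ± 787, SD, n = 3). Col1a2, a chain of type I collagen, stood at rank 6 with 7269, 7107 and 6368 (6915 ± 480, SD, n = 3). Acta2, the actin of smooth muscle, stood at rank 11 with 6302, 6933 and 5842 (6359 ± 547, SD, n = 3), and Eef1a1, which carries aminoacyl-tRNA to the ribosome, at rank 5 with 7858, 7517 and 6977. Ranks this close could not be told apart. Col3a1 at rank 2 and Eef1a1 at rank 5 differed in their means by less than the SD of either one across the arrays.

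Ribosomal proteins were the largest listed group at the top. Of 79 listed, 44 were measured, 35 of these were among the 100 brightest genes and 20 among the 30 brightest, and together they held 8.09% of the summed intensity of all genes. Their brightest member was Rpl41, a very short protein of the large subunit, with 7568, 8377 and 6882 in the 3 arrays, followed by Rps29, Rpl37a and Rps28 of means 7546, 6673 and 6451. Low means were read for 2 others of the same particle, Rps16 at 3.15 and Rpl39 at 7.10, within the range of the genes restricted to other tissues. These members were chosen after their values were seen, and every ribosome needs their products, so a rank here is that of a probe set's fluorescence and not of molecules per cell.

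The 100 brightest genes held 18.4% of the summed intensity, and 18.7%, 19.03% and 17.8% in controls 1, 2 and 3 when each was ranked alone. Besides ribosomal proteins they included 7 stromal markers, 6 smooth muscle genes, 6 translation factors and 6 genes of oxidative phosphorylation. No member of the epithelial list was among them, nor of most other lists. With 100 of 18193 genes taken, a list of 22 would usually hold none. In none of the 37 lists were 38 of the 100 genes. Among those 38 were Tmsb4x and Tmsb10, which bind actin monomers, at means of 6602 and 6246. Actb, the cytoplasmic actin, had a mean of 6398, and Lgals1, a lectin of mesenchymal cells, one of 4916. Without control 3, 97 of the 100 genes stayed among the 100 brightest, and Ifitm1, Igfbp4 and Xist did not.

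Control 3 weighed on the rank of single genes near the top. Pik3cd, the catalytic subunit of a phosphoinositide 3-kinase known from leukocytes, stood at rank 17 with 2709, 2927 and 11549, and at rank 69 without control 3. Its next brightest probe set read 12.3, 18.1 and 14.3 in the same arrays, at the level of the floor. Ctla2a, an inhibitor of cathepsin-type proteases, stood at rank 59 with 4632, 4306 and 458, and at rank 35 without control 3. Control 3 is thus the highest array for the one gene and the lowest for the other, by 4.26-fold and 10.1-fold between the extreme arrays.

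**Figure D1:**
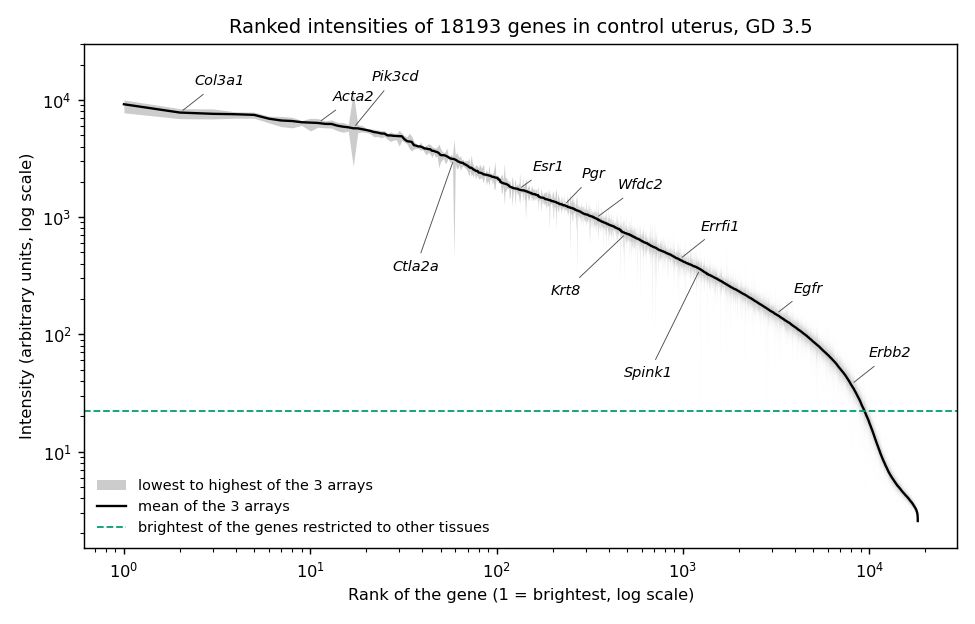
Mean intensity of 18193 genes (vertical axis, arbitrary units, log scale) against rank (horizontal axis, log scale), with the grey band from the lowest to the highest of the 3 control arrays and the dashed line at 22.1, the brightest gene restricted to other tissues. The curve crosses that line after 9439 genes, and the band is wide at Pik3cd and Ctla2a.

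Probe sets that can bind several transcripts weighed on the top of the ranking. Affymetrix marks them by _a, _s or _x in the name, and 72 of the 100 brightest genes were read at one, against 20.8% of all genes. Of the 72, 44 were _a, which stands for several transcripts of 1 gene, 11 were _s and 17 _x. Of the 44 ribosomal proteins 17 were read at _a, 2 at _s and 12 at _x. When all of these kinds were left out, 36 of the 100 genes stayed among the 100 brightest. Ribosomal proteins among them then numbered 6 in place of 35, and the kinds were not left out separately. Ribosomal protein genes have many near-identical processed copies in the genome, so their single levels are uncertain. Stromal and smooth muscle genes each had 8 members among the 100 brightest under that setting. Genes with more than 1 probe set, 9010 in all, had a median fold of 2.18 between the brightest and the next, with quartiles of 1.34 and 5.41. Levels of different genes are thus uncertain by at least the choice of probe set, and the full uncertainty of comparing them was not measured.

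The promoters of the leading genes are shown to set the ranking beside sequence. RefSeq starts on GRCm38.p6 gave a promoter for 14452 of the ranked genes, and the motif TATAAA, on the sense strand and lying whole between 45 and 16 bases before the start, was in 415 of them (2.87%). Of the 100 brightest genes 81 had a promoter, and 3 (3.70%) held the motif, namely Rpl22l1, Vim and Igfbp4. It was in 0 of 39 ribosomal protein promoters, 1 of 18 of smooth muscle genes, 1 of 17 of stromal markers and 0 of 17 of epithelial markers, counts too small to set against the share over all genes. The 60 bases before the start are printed 5′ to 3′ for the brightest gene of each of those lists and then for the 3 genes with the motif, which is in capitals. Wfdc2 has more than 1 start and is shown at the most upstream. For Spink1, the widest gene between the arrays, no promoter is shown.
Rpl41 (chr10:128549169-128549228, minus strand): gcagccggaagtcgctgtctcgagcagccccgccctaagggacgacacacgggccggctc
Col3a1 (chr1:45311478-45311537, plus strand): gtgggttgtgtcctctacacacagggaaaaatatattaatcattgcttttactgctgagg
Acta2 (chr19:34255374-34255433, minus strand): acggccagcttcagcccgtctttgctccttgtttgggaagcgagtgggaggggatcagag
Wfdc2 (chr2:164562655-164562714, plus strand): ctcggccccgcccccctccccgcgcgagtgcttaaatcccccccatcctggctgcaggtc
Rpl22l1 (chr3:28805448-28805507, plus strand): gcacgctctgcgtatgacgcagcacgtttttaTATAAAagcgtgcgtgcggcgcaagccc
Vim (chr2:13574251-13574310, plus strand): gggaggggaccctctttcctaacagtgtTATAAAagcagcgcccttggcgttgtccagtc
Igfbp4 (chr11:99041184-99041243, plus strand): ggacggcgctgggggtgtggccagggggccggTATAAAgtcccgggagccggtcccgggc
The motif began 28 bases before the start in Rpl22l1 and Igfbp4 and 32 bases before it in Vim. A promoter without these letters says only that they are not in this window.

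Muscle and stroma were the brightest tissue compartments. The 22 smooth muscle genes had a median intensity of 1261, at the 98.7th percentile of all genes, and 21 of them exceeded every gene restricted to other tissues. Tpm2, a tropomyosin, measured 3963, 4361 and 3703, Mylk, the kinase of myosin light chain, 3788, 4007 and 3248, and Myl9, a regulatory light chain, 3268, 3270 and 2883. The 25 measured stromal markers had a median of 895, at the 97.9th percentile. Sparc, a collagen-binding matrix protein, measured 4917, 4586 and 3671, and Dcn, the proteoglycan decorin, 4035, 4108 and 3391. Whether a list is bright because of many cells or much RNA per cell cannot be told apart in whole tissue.

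Epithelium gave a middle level. Its 22 measured markers had a median of 114, at the 77.6th percentile, and 83.5 without control 3. Wfdc2, a secreted protease inhibitor of the reproductive tract, was the brightest with 741, 830 and 1362. Krt8 and Krt18, the partner keratins of simple epithelium, measured 538, 520 and 1124, and 462, 479 and 903. Cldn3, a tight junction protein, went the other way with 630, 758 and 453. Control 3 was the highest array for Wfdc2, Krt8 and Krt18 and the lowest for Cldn3.

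The 11 gland markers had a median of 24.5, at the 49.7th percentile and just above the floor, and 31.6 without control 3, and 8 exceeded the floor. Foxa2, the transcription factor of glandular epithelium, measured 50.9, 58.6 and 64.1. Spink1, the second brightest of them, was lowest in control 3 with 412, 654 and 14.1. Prom1, a membrane protein of epithelial protrusions, measured 315, 333 and 471, and Cxcl15, a chemokine secreted by glands, 140, 84.9 and 228. Lif, the cytokine that glands release in response to E2 and that implantation in the mouse needs, read 21.3, 24.2 and 7.29, a mean under the brightest gene restricted to other tissues.

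Vessels and their mural cells were near the epithelial level or above it. The 21 endothelial genes had a median of 113, led by Sox17 at 1053, a transcription factor that uterine epithelium also expresses, and Cd34 at 910. The 7 pericyte genes had a median of 259, led by Rgs5, a regulator of G protein signalling, with 1846, 1904 and 1403.

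Among the immune lists, that of macrophages was the brightest and the others had medians under the floor. The 20 macrophage and antigen presentation genes had a median of 112, and 133 without control 3, with 19 above every gene restricted to other tissues. H2-Aa, a chain of class II histocompatibility molecules, measured 673, 665 and 522, and Csf1r, the receptor for the macrophage growth factor, 320, 366 and 313. Among T and natural killer cell genes 1 of 16 exceeded the floor, Gzma, a granule protease, with 36.9, 41.0 and 20.5. Of the B and plasma cell list 1 of 8 did so, Jchain, which joins chains of secreted immunoglobulin, with 62.4, 106 and 39.7. Igha, the heavy chain of immunoglobulin A and in no list, measured 421, 520 and 204 and was chosen after its values were seen. Of the neutrophil list 3 of 12 exceeded it, and 2 of these, Ltf and Lcn2, are also on the list of E2-responsive genes. Of the mast cell and eosinophil list 2 of 12 did so, Hdc, which makes histamine and also answers to P4 in the uterus, and Kit, a growth factor receptor. Cma1, a mast cell protease, read 9.95.

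Most lists of neighbouring tissue had medians under the floor, with single members above it. Blastocyst genes had a median of 5.59, and 2 of the 14 measured exceeded the floor, Gata6 at 57.3 and Utf1 at 23.6. Pou5f1, Nanog and Sox2, the pluripotency factors, read 4.24, 3.25 and 2.94. Of 18 ovary and oviduct genes 1 exceeded it, Foxl2 at 163, a factor that uterine stroma also expresses. Fabp4, the fatty acid carrier of fat cells, read 21.3, 88.5 and 31.5, and Car3, a carbonic anhydrase abundant in fat, 127, 322 and 126. Lpl, the lipoprotein lipase and brightest member of the fat cell list, read 365, 223 and 310. The list had a median of 5.98. Control 2 was the highest array for 8 of its 13 members, beside 52.2% of all genes under an intensity of 10. It was the lowest for 4, Lpl among them, beside 19.5% of all genes at that level. The part of attached fat in the values of control 2 was not tested. Red cell genes had a median of 5.36, 1 of 9 exceeded the floor, and Hba-a2, an alpha globin, read 6.44. Of 13 skeletal muscle genes 2 exceeded it, the actin Acta1 with 815, 916 and 243 and the troponin Tnni2 with a mean of 117. Of 10 mesothelial genes 2 did so, Wt1 at 162, a factor that uterine stroma also expresses, and Rspo1 at 86.6, a secreted activator of WNT signalling.

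**Figure D2:**
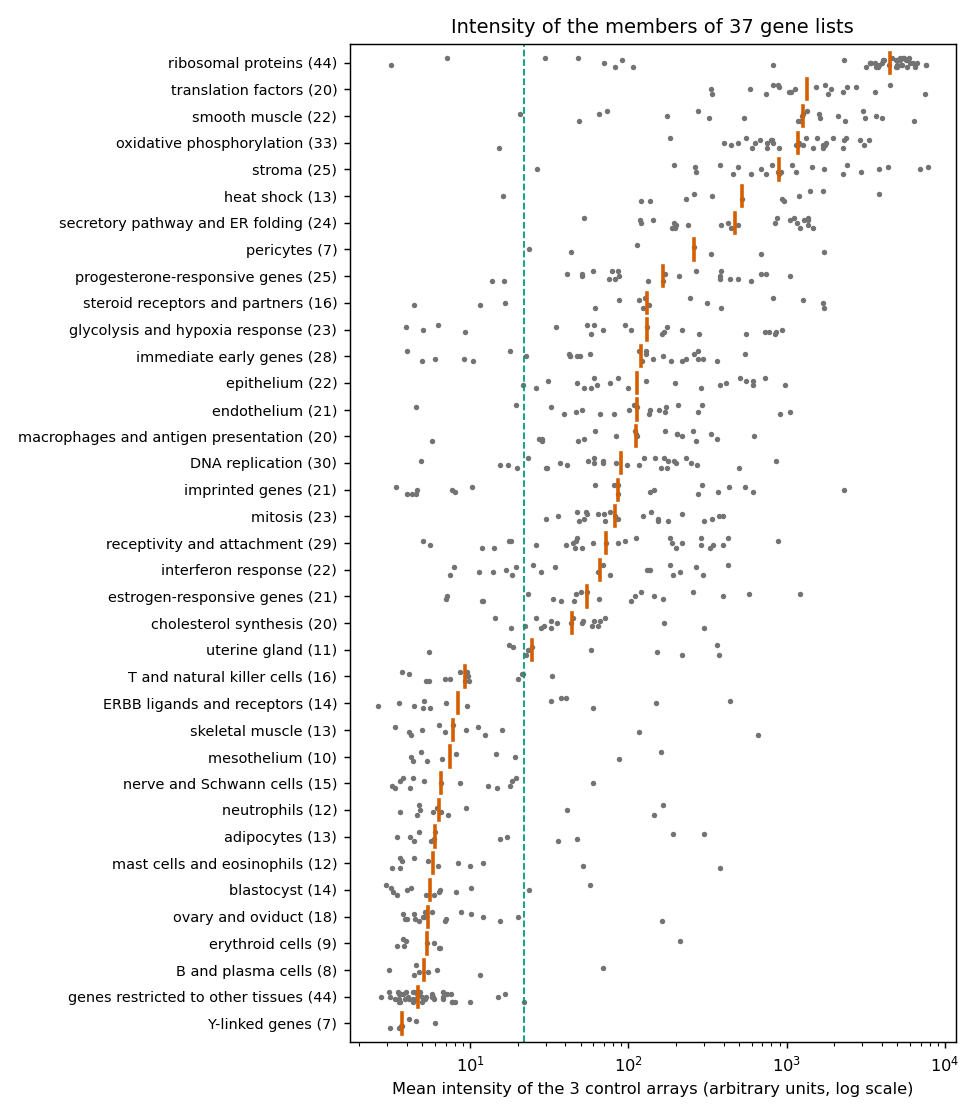
Mean intensity of the 3 control arrays (horizontal axis, arbitrary units, log scale) for each measured member (grey points) of 37 gene lists, ordered by the list's median (orange bars), with the number measured in brackets and the dashed line at 22.1, the brightest gene restricted to other tissues. Ribosomal proteins, translation factors, smooth muscle, oxidative phosphorylation and stroma, in this order, lie at the top, and the lists of blood, ovary, blastocyst and fat lie mostly under the line.

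Esr1 and Pgr were the brightest hormone receptors on a list of steroid receptors and their partners. Levels on it were uneven, and its median, taken over partners as well, was 131 at the 80.5th percentile. The heat shock gene Hsp90aa1, a partner on the same list, had a mean of 1694 at rank 138, between Esr1 and Pgr. Esr1, the receptor for E2, measured 1638, 1555 and 1975 (mean 1723 ± 223, SD, n = 3), at rank 131, or 160 without control 3. Pgr, the receptor for P4, measured 1065, 1107 and 1613 (1261 ± 305, SD, n = 3), at rank 230, or 295 without control 3. Esr2, the other E2 receptor, read 4.45 on average, the mineralocorticoid receptor Nr3c2 16.6 and the membrane E2 receptor Gper1 11.6, all under the floor. The glucocorticoid receptor Nr3c1, which shares targets with PGR, had a mean of 135. Control 3 was the highest of the 3 arrays for Esr1 and Pgr at these probe sets. The next probe set of Esr1 read 582, 324 and 513, highest in control 1. That of Pgr read far lower, at 38.8, 37.7 and 58.3.

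Genes that answer to P4 in the uterus had a median of 166, at the 84.4th percentile, and 23 of the 25 measured exceeded the floor. The median was 167 without control 3. The brightest were Sox17, with a mean of 1053 or 898 without control 3, then Hoxa10, a patterning factor needed for implantation, with 933, 732 and 566. Calb1, a calcium carrier of the luminal epithelium, measured 758, 658 and 660, and Nr2f2, the stromal factor COUP-TFII, 545, 687 and 554. Ihh, the epithelial signal that PGR induces on the way to Nr2f2, read 13.6, 22.0 and 13.6, under the floor, while Ptch1, its receptor and target, had a mean of 491.

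E2-responsive genes had a lower median of 54.9, at a percentile of 63.1, and 51.6 without control 3. Igf1, the stromal growth factor that relays E2 to epithelium, measured 1674, 1456 and 484. Sprr2f, a cornified envelope protein at rank 667, or 1255 without control 3, measured 376, 340 and 1011, and Clca1, a secreted mucus-processing protease, 24.3, 7.37 and 133. Ccnd1, the cyclin of G1 phase, was steady at 377, 412 and 402. Control 3 was thus the lowest array for Igf1 and the highest for Sprr2f and Clca1.

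Genes of receptivity and attachment had a median of 72.1, and 59.1 without control 3. Il6st, the signalling chain shared by the receptors of LIF and related cytokines, measured 817, 930 and 882, and its partner Lifr 100, 73.8 and 163. Itgav, an integrin chain, measured 460, 364 and 450. Wnt5a, a ligand that directs crypt formation, measured 505, 284 and 400, and Msx1, a homeobox factor of the receptive phase, had a mean of 286. Ptgs2, the inducible prostaglandin synthase that appears around an attaching embryo, read 4.09, 3.30 and 9.24.

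The gene that the knockouts lack was well above the floor. Errfi1 measured 454, 564 and 286 (mean 435 ± 140, SD, n = 3), at rank 956, or a mean of 509 and rank 786 without control 3, with a next probe set at 65.1, 59.5 and 33.7. Egfr, a receptor that MIG-6 inhibits, measured 196, 156 and 93.5, and control 3 was the lowest array for both genes. Erbb2, the other targeted gene, measured 29.4, 36.7 and 45.7 (37.3 ± 8.19, SD, n = 3), at rank 7979. Erbb3, its partner without kinase activity of note, measured 56.1, 32.3 and 91.3, and Erbb4 stood second to last of all genes with a mean of 2.60. Among the ligands Hbegf, the first signal from uterus to blastocyst, measured 34.7, 26.9 and 58.5, and Egf, Ereg and Btc lay between 3.55 and 5.07. Of the 14 measured genes of this family 6 exceeded the floor.

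Genes of DNA synthesis and division were mostly above the floor. Pcna, the sliding clamp of DNA polymerase, measured 1071, 805 and 702, and Mcm4, a subunit of the replicative helicase, 317, 222 and 205. Of 30 replication genes 26 exceeded the floor, with a median of 90.0, and all 23 mitotic genes did, with a median of 82.4. Mki67, the antigen of cycling cells, measured 346, 316 and 356, and Cdc20, which starts anaphase, 384, 414 and 392.

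Secretory and stress genes were bright as well. The 24 genes of the secretory pathway had a median of 468, led by Hspa5, the chaperone BiP, with 1781, 1516 and 1115. Of the heat shock list, Hspa8, the constitutive chaperone, measured 3592, 4222 and 3585, and the list had a median of 523. Immediate early genes had a median of 119. Jund, a subunit of the transcription factor AP-1, measured 647, 482 and 512, and Fos, which tissue handling can induce, averaged 57.2. The imprinted gene Gnas, encoding a G protein subunit, measured 2309, 2397 and 2228, and Igf2 averaged 61.1.

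Between the arrays the SD of log2 intensity had a median of 0.16 over all genes. By level it was 0.13 under an intensity of 10, 0.22 from 10 to 50, 0.18 from 50 to 200, 0.17 from 200 to 1000 and 0.14 from 1000 up. More than 2-fold between the highest and the lowest array was seen for 740 genes (4.07%), and for 361 (5.13%) of the 7032 with a mean of at least 50. Between controls 1 and 2 alone, 113 of the same 7032 genes differed by more than 2-fold, beside 179 between controls 1 and 3 and 229 between controls 2 and 3. The tightest of the very bright genes were Sparcl1, a matricellular protein, with 2180, 2149 and 2164, and G3bp2, a stress granule protein, with 1103, 1102 and 1083. Among the 329 genes with a mean of at least 1000, 50 differed by less than 1.1-fold over the 3 arrays.

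The widest gene between arrays with a mean of at least 100 was Spink1, a Kazal-type inhibitor of trypsin on the gland list, which measured 412, 654 and 14.1, a 46.3-fold range. Fst, the activin-binding protein follistatin that P4 induces, measured 255, 239 and 14.0 at its brightest probe set and 170, 139 and 11.5 at the next. Acod1, which makes itaconate and is induced by P4 in the uterus, measured 246, 228 and 22.3. Control 3 read below the floor for the first pair and near it for Acod1, where controls 1 and 2 stood far above it. Those arrays were close to each other for Fst and Acod1 but not for Spink1.

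Of the 15 widest genes with a mean of at least 100, 12 were lowest in control 3 and 3 were highest in it. These extremes differ from the fuller set, since of all 192 genes at that level over 2-fold, 95 were lowest in control 3, 85 in control 2 and 12 in control 1, and 82 were highest in control 1, 61 in control 3 and 49 in control 2. Among the 12 were the glucose transporter Slc2a3 with 740, 809 and 105, Maob, a monoamine oxidase, with 864, 717 and 118, and Npl, a sialic acid lyase, with 468, 347 and 48.3. Jam2, a junctional adhesion molecule, measured 217, 177 and 37.8, and its next probe set 144, 111 and 33.5. The 3 highest in control 3 were Laptm5, BC048679 and Slc40a1. Laptm5, a lysosomal protein of blood cells, measured 62.7, 75.1 and 668, whereas its next probe set was level at 169, 127 and 125. At the first of these probe sets it reached a mean of 100 only through control 3. So did BC048679, with a mean of 77.2 without control 3. Slc40a1, the iron exporter ferroportin, measured 156, 50.9 and 291, so that control 2 was apart as well.

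**Figure D3:**
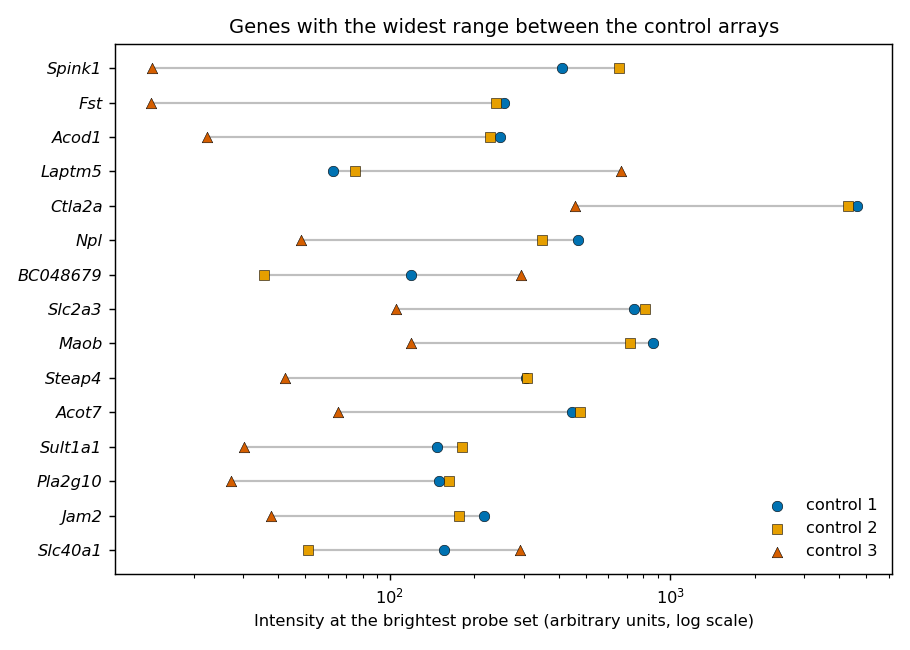
Intensity at the brightest probe set (horizontal axis, arbitrary units, log scale) of the 15 genes with the widest range among those with a mean of at least 100, with 1 symbol for each control array and a grey line from lowest to highest. Control 3 (triangles) is at the low end for 12 genes and at the high end for Laptm5, BC048679 and Slc40a1, while controls 1 and 2 mostly lie close together.

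P4-responsive genes held 8 of the 94 genes low in control 3. Of their 22 members with a mean of at least 50, these 8 were more than 2-fold below both other arrays and 1 was above both, and control 3 was the lowest array for 16 of all 25 measured. The shares were 1.34% below and 0.569% above over all genes with a mean of at least 50, and 35.3% lowest over all genes. This list, like the others, was chosen with earlier results of these data known, so the counts are a description and no independent support. Fkbp5, an immunophilin of steroid receptor complexes, measured 120, 120 and 20.4, and Lrp2, an endocytic receptor, 102, 118 and 15.9. Zbtb16, a transcription factor of decidualising stroma, measured 96.4, 70.7 and 12.3, Il13ra2, a decoy receptor for interleukin 13, 121, 109 and 16.6, and Hdc 441, 515 and 172. Zbtb16 and Il13ra2 were chosen after their values were seen. The exception was Wnt4, a ligand of the stroma and epithelium, with 29.5, 36.7 and 86.9. It reached a mean of 50 only through control 3.

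The shift was not shared by every P4-responsive gene. Sox17 was highest in control 3, with 871, 925 and 1364, and Calb1 and Gata2, a stromal and epithelial factor upstream of Pgr, read 660 and 424 there, within or above the range of the other arrays. As a list, the median over members of the log2 intensity minus the gene's own mean was 0.12, 0.30 and -0.23 in controls 1, 2 and 3, beside -0.01, 0.03 and -0.02 over all genes. The summed intensity of the list was 7168, 7212 and 5817.

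Epithelial markers moved with control 3 in the other direction. It was the highest array for 21 of the 22 measured, where over all genes controls 1, 2 and 3 were the highest for 32.1%, 41.3% and 26.6% and the lowest for 35.1%, 29.6% and 35.3%. Their median deviations were -0.11, -0.32 and 0.51, and their summed intensities 5041, 4753 and 8273. Krt19, a keratin of simple epithelium, measured 252, 234 and 749, and Esrp1, an epithelial splicing factor, 70.9, 43.4 and 142. Dsp, which anchors keratin at desmosomes, measured 167, 75.3 and 359, and Tspan8, an epithelial membrane protein, 138, 69.4 and 370. Neither is on the list. Both were named for being low in control 2, and Tspan8 also for being high in control 3, so they add no support. Control 2 was the lowest array for 14 of the 22 listed markers. The part of epithelial content in the genes that differ between the arrays was not tested.

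E2-responsive genes had deviations of 0.09, -0.46 and 0.43, and 13 of 21 were highest in control 3, beside 26.6% of all genes. Ltf, lactoferrin of the E2-stimulated epithelium, measured 73.9, 81.5 and 279, and Pigr, which carries immunoglobulin A across epithelium, had a mean of 120. Aldh1a1, a retinal dehydrogenase of the gland list, measured 114, 106 and 432. Wnt7a, a ligand of luminal epithelium and the widest member of the receptivity list, measured 33.8, 25.6 and 121. Neither is on the E2-responsive list. The summed intensities of the E2-responsive list were 3694, 3081 and 3645. The part of epithelial content here was not tested.

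Macrophage genes were low in control 3. It was the lowest array for 18 of 20, beside 35.3% of all genes, and their deviations were 0.18, 0.15 and -0.42. C1qa and C1qb, subunits of complement C1q made by tissue macrophages, measured 233, 297 and 123, and 302, 202 and 103. The summed intensities were less far apart, at 3401, 3508 and 2996, and the sum for control 3 includes the 668 of Laptm5. The 16 measured T and natural killer cell genes deviated by 0.08, 0.12 and -0.20, mostly at levels under the floor.

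**Figure D4:**
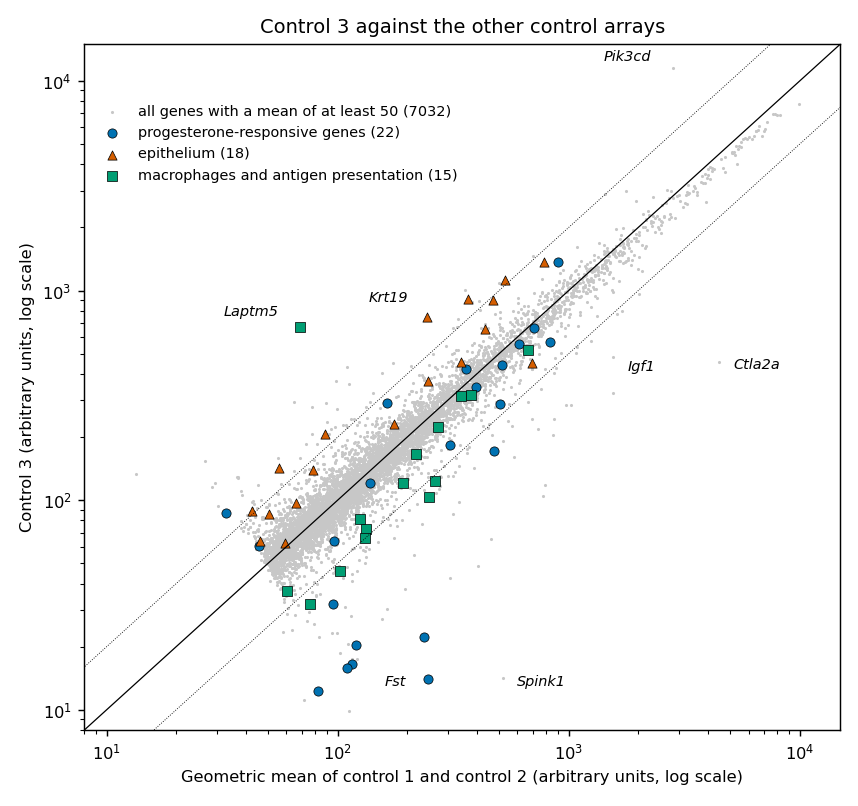
Intensity in control 3 (vertical axis) against the geometric mean of controls 1 and 2 (horizontal axis), both in arbitrary units on log scales, for 7032 genes with a mean of at least 50, with the line of equality and dotted lines at 2-fold. The P4-responsive genes (circles) reach far below the lines, most epithelial markers (triangles) lie above equality, and most macrophage genes (squares) lie below it.

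Smaller shifts ran through the muscle, matrix and growth lists. Control 2 was the highest array for 18 of 22 smooth muscle genes, beside 44.4% of all genes with a mean of at least 1000. The deviations of this list were -0.03, 0.18 and -0.14, and Des, the intermediate filament desmin, measured 449, 725 and 435. Ribosomal proteins were lowest in control 3 for 39 of 44, beside 58.1% of all genes with a mean of at least 1000, with a deviation of -0.11 there that became 0.01 when the 3 arrays were quantile normalized again. Stromal markers deviated by 0.06, 0.10 and -0.12, and control 3 was the lowest array for 13 of 25. The share was 37.2% of all genes with a mean from 200 to 1000 and 58.1% from 1000 up. Pdgfra, a receptor of stromal fibroblasts, measured 1056, 1092 and 503, and Mmp2, a gelatinase, 741, 1167 and 505. Pdgfra alone among these markers was more than 2-fold below both other arrays, and Mmp2 was the widest of them. Pdgfrb, on the same list, went the other way with 703, 554 and 814.

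Control 1 was apart in replication genes. It was the highest array for 27 of 30, beside 32.1% of all genes, with deviations of 0.29, -0.15 and -0.15. Mcm5, a helicase subunit, measured 296, 138 and 149 at its brightest probe set, but 70.2, 73.3 and 50.4 at the next. Mitotic genes deviated by 0.16, -0.16 and -0.02. Secretory pathway genes deviated by 0.16, 0.11 and -0.26. Control 3 was the lowest array for 19 of these 24, beside 35.3% of all genes. Sdf2l1, a cofactor of BiP, measured 159, 141 and 62.8.

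**Figure D5:**
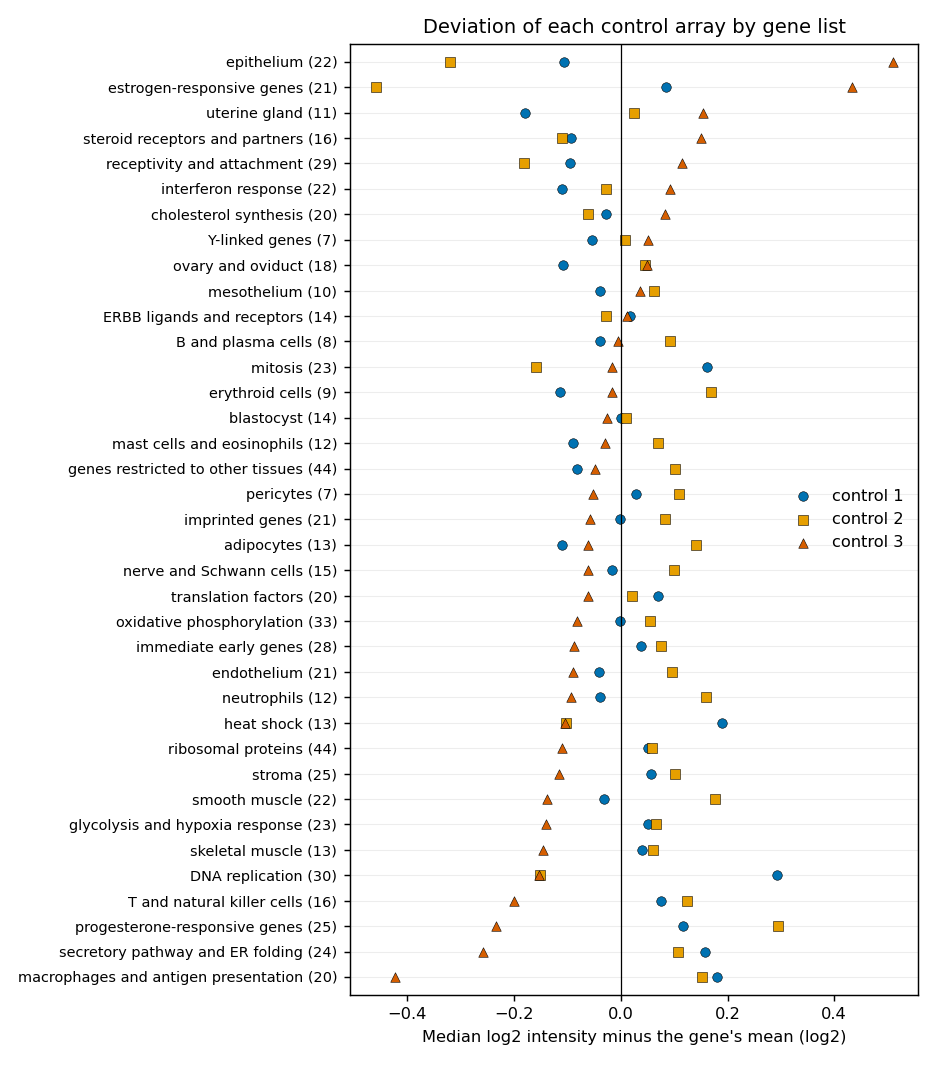
Median over the measured members of log2 intensity minus the gene's mean of the 3 arrays (horizontal axis, log2) for 37 gene lists, 1 symbol per control array, ordered by the value in control 3, with the number measured in brackets. Control 3 is lowest for macrophage genes (-0.42) and highest for epithelium (0.51), and control 1 is highest for DNA replication (0.29).

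How far other probe sets of a gene ordered the arrays alike was described with no test. Both the brightest and the next probe set had a mean of at least 50 in 2056 genes, and the same array was highest at both in 57.4% and lowest at both in 56.9%. In the 96 of these genes that spanned more than 2-fold at the brightest, the shares were 74.0% and 79.2%, and 54.2% spanned more than 2-fold at the next as well. Of the 94 genes low in control 3, 19 had such a next probe set, and control 3 was the lowest array at it for all 19. Of the 40 genes high in control 3, 9 had one, and control 3 was the highest at it for 6. Pik3cd and Laptm5, as given above, were read differently by their other probe sets.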

How the data were processed

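Total RNA of whole uteri was hybridised by the authors to Affymetrix Mouse Genome 430 2.0 arrays. The deposited values are 1 intensity per probe set and array on a linear scale, which the authors made with RMA and quantile normalization in Bioconductor. Versions are not given in the sources used here. With no scanner file or detection call at hand, no probe set could be judged present or absent. Precision is limited by there being 3 arrays.

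Of 45037 probe sets, 34945 had 1 symbol in the platform's annotation, 932 had several and 9160 were unnamed here. Of the first, 34741 matched a RefSeq gene table of GRCm38.p6 by Entrez identifier, which changed 0 symbols. Each of 18193 genes was read at its brightest probe set by the mean of the control arrays. Genes were ranked by the mean of the linear values, and spread was computed on the log2 scale, with Python 3.11.15, pandas 2.3.3, numpy 2.4.6 and matplotlib 3.10.9. The steps were tested on simulated data. A list's deviation is the median over its members of log2 intensity minus the gene's mean of 3. With 1 group there was no comparison between groups and no test.

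Named were the 30 brightest genes, per list the 4 brightest members and the widest at a mean of at least 50, the 15 widest genes at a mean of at least 100, the 10 narrowest at a mean of at least 1000, the 5 genes highest and the 5 lowest in each array against the others at a mean of at least 50, where a next probe set did not disagree, and Errfi1, Erbb2, Pgr and Esr1. Other names, such as Lif, Ihh, Wnt4, Gata2, Krt19, C1qa, Pdgfra and Des, were chosen after their values were seen, mostly as members of the lists. The gene lists, of 811 genes of which 703 were measured, and the rules were chosen with earlier results of these data known. Promoter sequences are RefSeq's. Alternatives were other means over arrays, each array left out, all probe sets of a gene averaged, probe sets marked _a, _s or _x left out, quantile normalization or median scaling of the 3 arrays, and members of at least 50 only. Reading each gene at its next probe set, and counting genes over 2-fold without control 3 at a mean of at least 50, were added after seeing the data.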

Additional observations from a re-analysis of the deposited data

How the results depend on the processing

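Of the 100 brightest genes, 97 to 99 stayed without 1 array, 78 when all probe sets of a gene were averaged and 36 without probe sets marked _a, _s or _x. Their share of the summed intensity ran from 18.2% to 18.8% without 1 array, was 20.5% with averaged probe sets and 15.7% without the marked ones. The median SD of 0.16 was 0.120 to 0.141 without 1 array, 0.147 with averaged probe sets and 0.177 at a mean of at least 50. The 740 genes over 2-fold became 251 to 458 without 1 array and 361 at a mean of at least 50. They became 110 without control 3 among genes whose mean of the other arrays was at least 50. At a given probe set the range cannot grow when an array is left out, so a fall was built in. The median SD also tends to be lower over fewer arrays.

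Deviations of at least 0.2 in control 3 kept their sign in 6 of 6 lists under all 46 values. With control 1 or 2 left out, control 3 weighs more in the gene's mean, which by itself makes the deviation smaller. In the epithelial list it was 0.33 to 0.40 with control 1 or 2 left out and 0.24 at the next probe set, over 4 genes. In the E2-responsive list these were 0.17 to 0.37 and 0.10. In the macrophage list they were -0.38 to -0.26 and -0.19. In the P4-responsive list they were -0.22 to -0.21 and -0.34. At the next probe set the members of most of these lists were split. Control 3 was the lowest array for 3 and the highest for 2 of 6 P4-responsive genes. It was the highest for 2 and the lowest for 1 of 4 epithelial genes, and the highest for 3 and the lowest for 2 of 5 E2-responsive genes. Of 5 macrophage genes it was the lowest for 4 and the highest for 0.

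Other deviations changed sign, and not all of them were small. Quantile normalization gave 0.01 for ribosomal proteins in control 3. With 1 other array left out, control 2 ran from -0.13 to 0.00 for steroid receptors, -0.01 to 0.26 for macrophages, -0.24 to 0.01 for DNA replication, and reached 0.01 for heat shock and -0.06 for the secretory pathway, while control 1 ran from -0.33 to 0.06 for epithelium and from -0.13 to 0.01 for adipocytes. At members of at least 50, control 2 gave -0.60 for neutrophils and -0.77 for nerve. At the next probe set, control 2 gave -0.09 for erythroid cells and 0.04 for heat shock. Control 1 gave 0.10 there for erythroid cells and 0.08 for interferon response. For E2-responsive genes control 2 gave 0.05 at the next probe set over 5 genes, in place of -0.46 over the 21 measured at the brightest. The causes were not tested. No paired analysis was possible because 1 group was described. Levels under about 22.1 cannot be told from the genes restricted to other tissues.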

Other observations

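The brightest genes in no list that were more than 2-fold lower in control 3 than in both other arrays were, after Ctla2a, the following, all chosen after their values were seen. Mt2, a metallothionein, measured 2072, 1962 and 962, and Plac8, a small cysteine-rich protein, 1657, 1741 and 797. Rgs2, a regulator of G protein signalling, measured 1572, 1527 and 326, and Ctsd, the lysosomal protease cathepsin D, 1211, 1287 and 576. Controls 1 and 2 lay close together for each of these 4 genes.

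On the high side, after Pik3cd, were Ramp3, a receptor activity-modifying protein, with 338, 323 and 734, and Nr1d2, a nuclear receptor of the circadian clock, with 207, 209 and 437. Thrsp, a regulator of fat synthesis, measured 175, 174 and 451, and Slc26a7, an anion exchanger, 185, 131 and 403.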
